A study of Homo sapiens with 8 samples.

Results

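The genes described here are those of the adenosine axis around CD73, the surface enzyme encoded by NT5E, in spheroids of 2 ovarian carcinoma cell lines, the parental OVCAR-8 and the cisplatin-resistant OVCAR-8R that was derived from it. The 10 genes were chosen by their role in the production, sensing, uptake or removal of adenosine, with the difference between the lines already known, so their levels, differences and calls are given as a description. The calls come from the fit across all genes and are no independent test of these genes. Of the 10 genes, 9 have a probeset annotated to 1 gene, out of 18417 such genes on the array, and 8 passed the filter on low signal, out of 15931. The probeset of ADORA2A, a receptor that raises cAMP, is shared with a read-through transcript, so that gene was not analysed here. ENTPD3 did not pass, since its signal was in the lowest quartile in OVCAR-8R as in OVCAR-8.

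Total RNA was profiled on 8 Affymetrix Human Gene ST arrays, 4 for each line. OVCAR-8R, which the sample labels call OVCAR-8C, was selected by stepwise exposure of OVCAR-8 to cisplatin up to 5 μM. The platinum of this drug binds to DNA and links its bases. OVCAR-8R stayed resistant after the drug was withdrawn. OVCAR-8, labelled wild-type, is the parental line, which received no such exposure. Cells of both lines were maintained in DMEM with 10% fetal bovine serum and aggregated into spheroids in agarose molds, and both are models of a single cell line. The sources used here do not say whether OVCAR-8R is 1 clone, and fewer cells of a kind and less RNA per cell cannot be told apart in RNA of whole spheroids. Signals are log2 values of the RMA signal, which the authors background-corrected, quantile-normalized and summarised per probeset. Differences are the mean of OVCAR-8R minus the mean of OVCAR-8, with the standard error (SE) from limma. A gene is called where the Benjamini-Hochberg adjusted p over all probesets kept is under 0.05 and the difference is at least 2-fold. Signals of different probesets are not on a common scale, so levels are compared between lines and not between genes.

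Extracellular adenosine is made from ATP in steps. CD39 (ENTPD1) and its relatives remove phosphates from ATP and ADP to give AMP, and CD73 removes the last phosphate to give adenosine. Adenosine then acts on G protein-coupled receptors, of which the A1 receptor lowers cAMP and those encoded by ADORA2A and ADORA2B raise it, until the carrier ENT1 (SLC29A1) takes it into the cell, where adenosine kinase (ADK) turns it back into AMP and adenosine deaminase (ADA) into inosine. In tumours, CD73 is known as a surface antigen of mesenchymal and carcinoma cells and adenosine as a suppressor of T cells.

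The median log2 signal of the arrays lay between 6.67 and 6.73. Within OVCAR-8R, arrays 1 and 3 deviated from the mean of the line together over all probesets (r = 0.43), as did arrays 2 and 4 (r = 0.48). In 4 of the 8 adenosine genes (ENTPD2, ADORA1, ADORA2B and ADA) arrays 1 and 3 were both above arrays 2 and 4, and in ADK both were below. Over all genes these patterns held for 33.8% and 33.8%. The titles number the arrays as biological replicates without naming the step at which they were separated, so the spread between them may be partly technical. Of 10 ovarian carcinoma and epithelial markers, 6 were called higher in OVCAR-8R, where 8.37% of all genes were called higher and 8.37% lower. Among the 6 were the Müllerian transcription factor gene PAX8 (log2 difference 3.77, SE 0.11) and the keratin gene KRT7 (4.45, SE 0.18). Of the 4 not called, WT1, a marker of serous ovarian carcinoma, had a difference of -0.86 (SE 0.12) and CDH1 (E-cadherin) one of -0.23 (SE 0.08), both without overlap of the lines. The leukocyte markers PTPRC, CD3E, MS4A1 and LYZ were below the filter, as was EMCN of the endothelium. The endothelial markers PECAM1, CDH5, VWF and KDR had mean log2 signals between 5.15 and 5.78 in both lines. TEK averaged 5.22 in OVCAR-8R and 5.05 in OVCAR-8, while CLDN5 averaged 7.08 and 7.09. Of the leukocyte markers that passed the filter, NKG7 averaged 6.85 in OVCAR-8R and 6.91 in OVCAR-8. CD2, CD14 and ITGAM had means between 5.12 and 5.84 in both lines. Besides these, 1 of 5 leukocyte markers tested was higher, the lysosomal gene CD68 (2.52, SE 0.08), and 1 of 7 endothelial markers, TIE1 (1.24, SE 0.15). Among 6 fibroblast markers tested COL1A1 was higher (2.04, SE 0.08) and LUM was called lower. LUM had a mean log2 signal of 4.08 in OVCAR-8R, below the quartile limit, and 5.23 in OVCAR-8, just above it. PDGFRA, COL1A2, COL3A1 and PDGFRB were not called, with differences of -0.02, -0.04, -0.07 and 0.60. DCN and POSTN were below the filter. The part of these markers in the results below was not tested.

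Of the 8 adenosine genes that passed the filter, 1 was called higher, NT5E, none was called lower and 7 were not called. Over all 15931 genes 8.37% were called higher, 8.37% were called lower and 16.7% in either direction. The arrays of both lines did not overlap for 5 of the 8 genes, as they did not for 56.8% of all genes. Of these 5, NT5E and ADK were higher in OVCAR-8R, and ENTPD1, ADA and SLC29A1 were lower. ENTPD2, ADORA1 and ADORA2B overlapped. Since the genes were chosen with this contrast known, nothing is read from these counts.

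**Figure D1:**
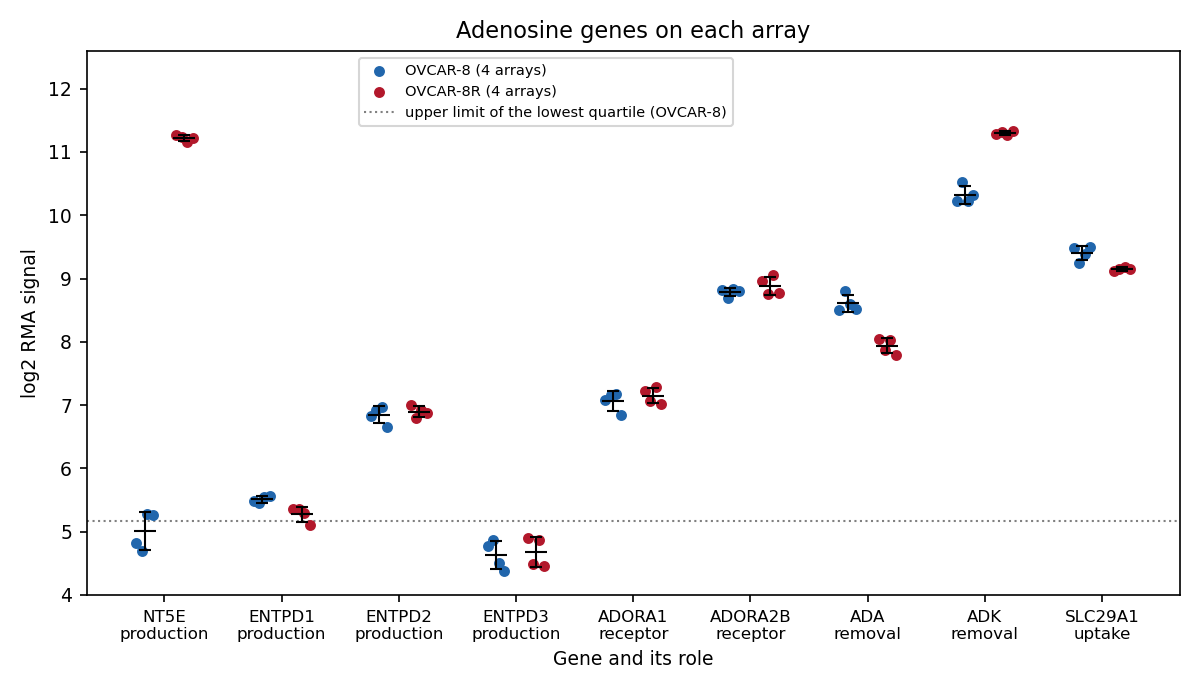
Log2 RMA signal (y axis) of each of the 9 adenosine genes with a probeset of its own (x axis) on the 4 OVCAR-8 arrays (blue) and the 4 OVCAR-8R arrays (red), with black marks for the mean and its SD in either line. The dotted line at 5.16 is the upper limit of the lowest quartile of signal in OVCAR-8. NT5E lies around that limit in OVCAR-8 and between 11.15 and 11.26 in OVCAR-8R, and no other gene differs by as much as 1 on the log2 scale.

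NT5E encodes CD73, the GPI-anchored enzyme that makes adenosine from AMP at the cell surface. On the OVCAR-8R arrays 1 to 4 its log2 signal was 11.26, 11.23, 11.15 and 11.21, and on the OVCAR-8 arrays 1 to 4 it was 4.82, 4.70, 5.28 and 5.26. All OVCAR-8R arrays were far above all OVCAR-8 arrays, with a gap of 5.87 between the nearest arrays. OVCAR-8R averaged 11.21 ± 0.05 (SD, n = 4) against 5.02 ± 0.30 (SD, n = 4) for the parental arrays, a log2 difference of 6.20 (SE 0.13), or 73.5-fold. The OVCAR-8 mean lay 0.15 below the upper limit of the lowest quartile of signal in that line, near background. With that limit in place of the OVCAR-8 mean the difference was 66.3-fold (6.05 on the log2 scale). OVCAR-8 arrays 1 and 2 were below that limit of 5.16 and arrays 3 and 4 slightly above it. The median absolute log2 difference over all genes was 0.34.

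The sequence just before the start of NT5E is shown because this gene carries the main difference, beside that of ADA, the adenosine gene with the largest decrease. Both are the 250 bases before the RefSeq transcription start in the assembly GRCh38.p14, written 5′ to 3′ on the strand of the gene, and lie at chr6:85449833-85450082 (plus strand) for NT5E and chr20:44651700-44651949 (minus strand) for ADA. Capitals mark GC boxes, the letters GGGCGG on either strand.
NT5E: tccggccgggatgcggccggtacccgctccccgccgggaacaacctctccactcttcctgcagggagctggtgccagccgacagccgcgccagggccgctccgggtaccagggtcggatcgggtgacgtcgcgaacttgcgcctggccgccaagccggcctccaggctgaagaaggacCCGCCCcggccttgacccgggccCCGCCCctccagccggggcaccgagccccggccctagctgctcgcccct
ADA: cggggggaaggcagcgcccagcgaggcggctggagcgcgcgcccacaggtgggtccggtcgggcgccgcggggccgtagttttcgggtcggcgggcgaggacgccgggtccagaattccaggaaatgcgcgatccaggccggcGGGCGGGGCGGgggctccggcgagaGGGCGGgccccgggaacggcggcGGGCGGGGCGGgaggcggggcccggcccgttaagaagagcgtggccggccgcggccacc
The NT5E window had 75.2% G and C and 28 CpG dinucleotides, and the ADA window had 80% and 41, against medians of 58% and 11 over all 35116 promoter windows of the same length. The NT5E window held 2 GC boxes on the opposite strand, from 72 to 67 and from 49 to 44 bases before the start. The ADA window held 5 on the strand of the gene, among them 2 pairs that overlap by a base. GC boxes were found in 42.6% of all windows. Also searched on both strands were ACGTG, a form of the core of hypoxia response elements (18.5% of all windows), and TGACGTCA, the full cAMP response element (1.65%). The others were TGACTCA, an AP-1 site (4.2%), and CTTTGA, a core bound by TCF/LEF factors (11.2%). None of these 4 motifs was found with exactly these letters in the NT5E or ADA window, and variants of them were not searched. RefSeq windows were at hand for 9 of the 10 adenosine genes, 15 in all, and 10 of the 15 held a GC box. ACGTG was found in 1 window (SLC29A1), TGACTCA in 1 (ENTPD2) and CTTTGA in 2 (both of ENTPD1).

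The 3 genes of the CD39 family chosen here encode enzymes that can supply AMP to CD73, and their part in its supply was not tested. ENTPD1, which encodes CD39 itself and is typical of leukocytes and endothelium, had log2 signals of 5.36, 5.36, 5.29 and 5.10 on the OVCAR-8R arrays and 5.49, 5.45, 5.55 and 5.57 on the OVCAR-8 arrays. The lines did not overlap, by a margin of 0.09, and the difference was -0.24 (SE 0.08). Both means were close to the limit of the lowest quartile, 0.17 above it in OVCAR-8R and 0.35 above it in OVCAR-8. ENTPD2, an ectonucleotidase that prefers ATP over ADP, had log2 signals of 7.0, 6.79, 6.92 and 6.88 in OVCAR-8R and 6.84, 6.92, 6.98 and 6.66 in OVCAR-8. These overlapped throughout and differed by 0.05 (SE 0.09). ENTPD3 was listed between 4.45 and 4.89 in OVCAR-8R and between 4.38 and 4.87 in OVCAR-8, below the quartile limit on every array.

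Both receptors with a probeset of their own were close to equal in the lines. ADORA1, which encodes the A1 receptor that couples to inhibitory G proteins, had log2 signals of 7.22, 7.07, 7.28 and 7.02 in OVCAR-8R and 7.08, 7.16, 7.18 and 6.84 in OVCAR-8. The lines overlapped, and the means of 7.15 ± 0.12 (SD, n = 4) and 7.07 ± 0.16 (SD, n = 4) differed by 0.08 (SE 0.10). ADORA2B, the A2B receptor of low affinity that couples to the stimulatory G protein, had log2 signals of 8.96, 8.76, 9.06 and 8.77 in OVCAR-8R and 8.83, 8.69, 8.83 and 8.80 in OVCAR-8. The lines overlapped here too, with OVCAR-8R arrays 1 and 3 above the rest, and the difference was 0.10 (SE 0.09). By the size of the difference, 17.7% of all genes differed less than ADORA1.

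ADK and ADA, which remove adenosine inside the cell, differed in opposite directions. ADK had log2 signals of 11.28, 11.31, 11.26 and 11.33 in OVCAR-8R and 10.22, 10.52, 10.22 and 10.32 in OVCAR-8. The resistant arrays all lay above the parental ones, by at least 0.74, and OVCAR-8 array 2 was the highest of its line. The means of 11.30 ± 0.03 (SD, n = 4) and 10.32 ± 0.14 (SD, n = 4) differed by 0.97 (SE 0.08), or 1.96-fold, just under the 2-fold threshold of a call. Without OVCAR-8 replicate 2 the difference was 1.04 and ADK was called, as it was with cyclic loess (1.1) and with array weights (1.01). ADA had log2 signals of 8.04, 7.88, 8.04 and 7.79 in OVCAR-8R and 8.51, 8.80, 8.60 and 8.52 in OVCAR-8. The resistant arrays all lay below the parental ones, by at least 0.47. The difference of -0.67 (SE 0.09) put the OVCAR-8R signal at 62.9% of that in OVCAR-8 and was under 2-fold. Of all genes, 82.5% differed by less than ADK and 71.1% by less than ADA.

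SLC29A1, which encodes ENT1, the equilibrative carrier that takes adenosine into the cell, had log2 signals of 9.12, 9.16, 9.19 and 9.15 in OVCAR-8R and 9.48, 9.25, 9.39 and 9.50 in OVCAR-8. The lines did not overlap, by a margin of 0.06, with OVCAR-8 array 2 nearest to the OVCAR-8R arrays. The difference was -0.25 (SE 0.08), so the signal in OVCAR-8R was 83.9% of that in OVCAR-8.

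**Figure D2:**
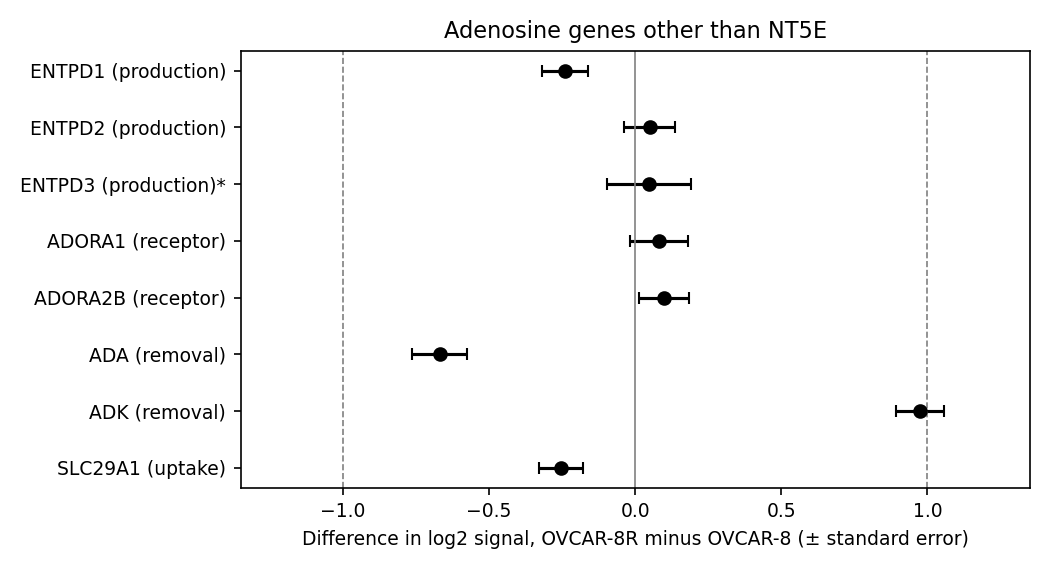
Difference in log2 signal between OVCAR-8R and OVCAR-8 (x axis) for the 8 adenosine genes other than NT5E (y axis, with their roles), as points with the standard error from limma, and dashed lines at the 2-fold threshold. ENTPD3, marked with an asterisk, did not pass the filter on low signal. ADK at 0.97 lies next to the threshold, ADA at -0.67 lies opposite to it, and the rest lie between -0.25 and 0.10.

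**Figure D3:**
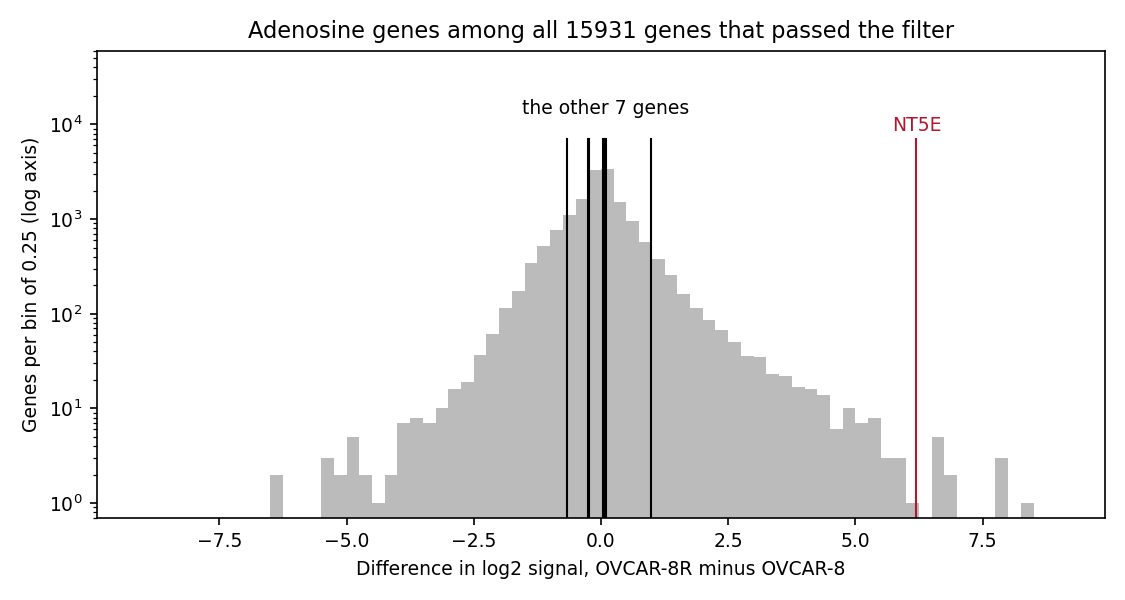
Number of genes (y axis, log scale) in bins of the difference in log2 signal between OVCAR-8R and OVCAR-8 (x axis, grey) for all 15931 genes that passed the filter, with the 8 adenosine genes as vertical lines. NT5E at 6.20 lies in the sparse upper tail, and the other 7 genes lie between -0.67 and 0.97.

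The genes most like NT5E over the 8 arrays, by Pearson correlation of the log2 signals, were AKAP12, a scaffold of protein kinase A, at r = 0.9997, the collagenase gene MMP1 at r = 0.9996, and OSBPL10, an oxysterol-binding protein gene, the zinc finger gene ZBTB38 and FN1 (fibronectin), each at r = 0.9995. Their log2 differences were 1.36 (SE 0.07) for AKAP12, 6.86 (SE 0.17) for MMP1, 0.90 (SE 0.06) for OSBPL10, 2.56 (SE 0.07) for ZBTB38 and 5.86 (SE 0.13) for FN1. Such values rest mainly on the step between the lines, which all 8 arrays share, and r was over 0.99 for 679 and over 0.9 for 3186 of the other 15930 genes.

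Of the 10 measured genes next to NT5E on chromosome 6, 5 on each side in the order of the RefSeq annotation, 3 were called higher, 1 was called lower and 6 were not called, where 8.37% of all genes were called higher and 16.7% in either direction. On the side before NT5E, RIPPLY2, CYB5R4, MRAP2, CEP162 and TBX18 had log2 differences of 0.02, 0.79, -0.77, 0.06 and -0.14, and none was called. On the side after it, SNX14, a sorting nexin gene next to NT5E, rose by 1.30 on the log2 scale (SE 0.08, limma adjusted p = 9.02e-07), and SYNCRIP, an RNA-binding protein gene, had a difference of 0.36. The small nucleolar RNA genes SNORD50A and SNORD50B rose by 1.47 (SE 0.17) and 1.40 (SE 0.14). They are adjacent, and their sequences are alike and may share signal, so their calls may not be independent of each other. CGA, the common subunit of the pituitary and placental glycoprotein hormones, fell by 3.35 (SE 0.19, limma adjusted p = 3.58e-07). Its mean log2 signal was 8.49 in OVCAR-8 and 5.14 in OVCAR-8R. The latter lay close to the quartile limit of 5.11 in OVCAR-8R, so the size of the fall is uncertain. None of the 10 neighbours differed by as much as NT5E.

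**Figure D4:**
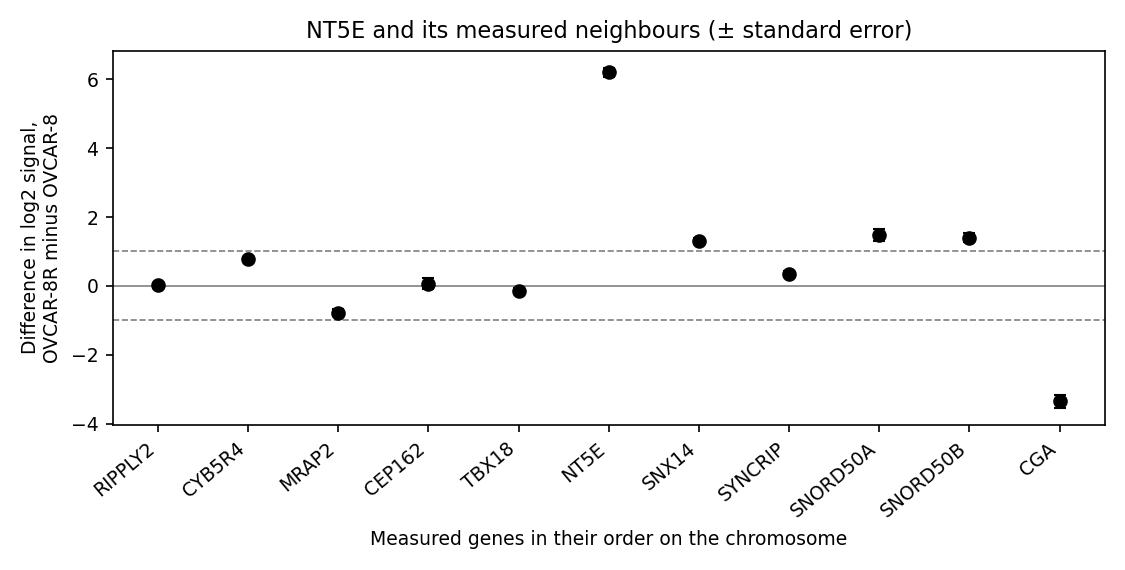
Difference in log2 signal between OVCAR-8R and OVCAR-8 (y axis, points with the standard error, dashed lines at the 2-fold threshold) for NT5E and the 5 measured genes on each side in their order on the chromosome (x axis, not to scale). NT5E at 6.20 stands between TBX18 at -0.14 and SNX14 at 1.30.

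Another 164 genes of the pathway were listed by role in 12 lists, of which 139 were tested, 14 have no probeset of 1 gene and 11 did not pass the filter. Of the 139, 13 were called higher (9.35%), 16 were called lower (11.5%) and 110 were not called. That is 20.9% called against 16.7% of all genes, where 8.37% were called higher and 8.37% lower. The lists were chosen with earlier results of these data known, so nothing is read from these counts. The median log2 difference was -0.01 over the 139 genes and -0.01 over all genes.

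Among 13 further CD39 relatives and surface nucleotide hydrolases, none was called higher and 2 were called lower. Of all genes, 8.37% were called higher and 8.37% lower. ENPP1, which splits ATP directly into AMP and pyrophosphate, fell by 1.72 on the log2 scale (SE 0.11, limma adjusted p = 1.09e-06), from 9.77 ± 0.07 (SD, n = 4) to 8.05 ± 0.24 (SD, n = 4). ENPP2, the secreted enzyme autotaxin that makes lysophosphatidic acid, fell by 1.41 (SE 0.12, limma adjusted p = 4.79e-06). ENTPD5, an enzyme of the endoplasmic reticulum, had a difference of -0.69, and BST1, an ectoenzyme of NAD, one of 0.69. The median of the list was 0.04. None of 6 intracellular 5'-nucleotidases, which make nucleosides inside the cell, was called. NT5C2 had a difference of 0.62 and NT5C3B one of -0.75.

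Of 6 genes for ATP release, 2 were called higher and none lower, where 8.37% of all genes were called higher and 8.37% lower. SLC17A9, the transporter that loads ATP into vesicles, rose by 2.12 (SE 0.10, limma adjusted p = 8.85e-08), from 6.91 ± 0.19 (SD, n = 4) to 9.04 ± 0.04 (SD, n = 4). PANX1, a channel that releases ATP, rose by 1.32 (SE 0.09, limma adjusted p = 1.20e-06). GJA1 (connexin 43) had a difference of -0.77. Of 9 P2 receptors, which sense ATP and other nucleotides before they are broken down, P2RX4, an ATP-gated cation channel, rose by 1.69 (SE 0.09, limma adjusted p = 1.97e-07). P2RY1, an ADP receptor, fell by 1.03 (SE 0.10), a call that ended without OVCAR-8R replicate 2 or OVCAR-8R replicate 4 and with treat, limma's test against a 2-fold difference in place of 0. P2RY2, a receptor of ATP and UTP, had a difference of 0.93, under 2-fold, and passed 2-fold without OVCAR-8 replicate 1. P2RX7, which opens at high ATP, averaged 5.83 on the log2 scale in OVCAR-8R against 5.15 for the parental arrays, the latter below the quartile limit, so the size of its difference is uncertain.

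None of 5 other nucleoside transporters was called, with differences from -0.06 to 0.46. The same held for a list of 8 genes, mostly of other enzymes that make or use adenosine, AMP or inosine, with differences from -0.62 to 0.80. At the low end was DPP4 (CD26), which is not such an enzyme but binds adenosine deaminase on the surface. At the high end was AMPD3, an AMP deaminase. PNP, which splits inosine, had a difference of -0.44. Of 4 adenylate kinases with a probeset, none was called, where 16.7% of all genes were called in either direction.

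Of 18 genes for the G proteins and adenylyl cyclases that act below the adenosine receptors, 4 were called higher and none lower. Their median difference was 0.33, and 8.37% of all genes were called higher and 8.37% lower. GNAI2, an inhibitory G protein subunit, rose by 2.89 (SE 0.07, limma adjusted p = 1.54e-09), although its other probeset differed by 0.47. GNAO1, also of the inhibitory family, rose by 1.98 (SE 0.16, limma adjusted p = 3.62e-06), and the cyclase genes ADCY5 and ADCY7 rose by 1.15 (SE 0.13) and 1.13 (SE 0.07), 2 calls that ended with treat. GNAS, the stimulatory subunit, had a difference of 0.54. Of 17 cAMP effectors and phosphodiesterases, 2 were called lower and none higher. PDE3B, which breaks down cAMP, fell by 1.87 (SE 0.14, limma adjusted p = 2.80e-06), and PRKAR2B, a regulatory subunit of protein kinase A, by 1.19 (SE 0.13), a call that ended with treat.

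Of 13 genes listed as cAMP response genes, 1 was called higher and 2 were called lower, with a median of -0.58. Among all genes 8.37% were called higher and 8.37% lower. The list also holds CRTC1, CRTC2 and CRTC3, which encode coactivators of this response (0.11, -0.88 and -0.45). DUSP1, a MAP kinase phosphatase, rose by 2.26 (SE 0.07, limma adjusted p = 1.01e-08). The orphan nuclear receptor genes NR4A2 and NR4A3 fell by 1.49 (SE 0.10, limma adjusted p = 1.30e-06) and 1.27 (SE 0.09), the second a call that ended with treat, while NR4A1 had a log2 signal of 7.87 in both lines. RGS2, a regulator of G protein signalling, had a difference of -0.98 and passed 2-fold on leaving out array 3 of OVCAR-8R, array 1 of OVCAR-8 or array 3 of OVCAR-8.

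CD73 is held on the surface by a GPI anchor. Of 27 genes that assemble or remodel this anchor, 8 were called lower and 2 were called higher, with a median of -0.36. Over all genes 8.37% were called lower and 8.37% higher. PIGN fell by 2.34 (SE 0.11, limma adjusted p = 9.07e-08), from 8.91 ± 0.09 (SD, n = 4) to 6.56 ± 0.21 (SD, n = 4), and PIGF by 1.94 (SE 0.11), both of which act in adding ethanolamine phosphate to the anchor. PIGA, the subunit that starts the anchor, fell by 1.79 (SE 0.13, limma adjusted p = 2.36e-06) and PIGX, of the mannosyltransferase, by 1.61 (SE 0.15). PIGQ, which acts in the same complex as PIGA, rose by 1.46 (SE 0.10, limma adjusted p = 1.59e-06), and the mannosyltransferase gene PIGV rose by 1.12 (SE 0.09), a call that ended with treat. Of the other 4 lower genes, PGAP1, which remodels the attached anchor, fell by 1.58 (SE 0.16), and PIGL, a deacetylase of an early step, by 1.34 (SE 0.08). PIGK and PIGS of the transamidase fell by 1.25 (SE 0.14) and 1.01 (SE 0.11). These last calls both ended with treat, and that of PIGS also with cyclic loess and on leaving out array 1 or 3 of OVCAR-8R, or array 3 of OVCAR-8. GPAA1, of the same transamidase, had a difference of 0.78.

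Of 13 transcription factors that general knowledge links to the NT5E promoter, 3 were called higher and 1 was called lower. The shares over all genes were 8.37% higher and 8.37% lower. SMAD3, which relays TGF-β signals, rose by 1.79 (SE 0.07, limma adjusted p = 3.38e-08), EPAS1 (HIF-2α), a hypoxia factor, by 1.65 (SE 0.09, limma adjusted p = 2.16e-07), and TFAP2A by 1.19 (SE 0.19), a call that ended with treat. LEF1, a factor of the WNT pathway, fell by 2.58 (SE 0.11, limma adjusted p = 5.37e-08). HIF1A had a difference of 0.96, under 2-fold, and passed 2-fold with cyclic loess, without OVCAR-8R replicate 1 and, separately, without OVCAR-8 replicate 4. SP1, which binds GC boxes, had one of -0.24, and CTNNB1 (β-catenin) one of -0.07.

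**Figure D5:**
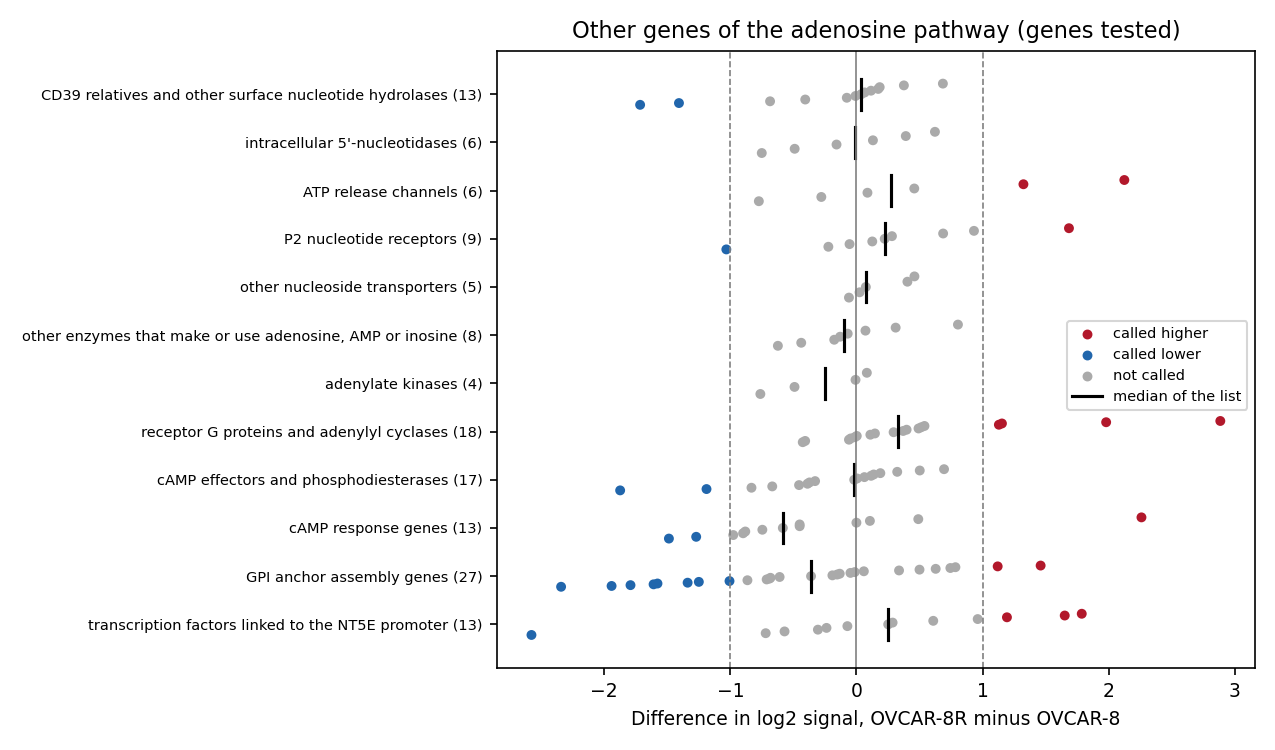
Difference in log2 signal between OVCAR-8R and OVCAR-8 (x axis) of each tested gene in the 12 lists of other pathway genes (y axis, with the number tested), red where called higher, blue where called lower and grey where not called, with the median of each list in black and dashed lines at the 2-fold threshold. The list of GPI anchor genes, the largest with 27 of the 139 genes tested, holds 8 of the 16 lower calls. Over all genes 8.37% were called lower. No gene of these lists reaches the difference of 6.20 seen for NT5E.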

How the data were processed

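RNA of OVCAR-8R and OVCAR-8 spheroids was measured on Affymetrix Human Gene ST arrays, 4 per line, grouped by their titles. The authors computed intensity values by RMA in Affymetrix Expression Console, which quantile-normalizes arrays and so removes overall differences between lines; the deposited intensity values are linear, and their log2 was taken for every step. The annotation names 1 gene for 19460 of 33297 probesets, several for 1754 and none for 12083, and 19429 of the 19460 were found by gene identifier in the RefSeq table of GRCh38.p14, with 0 symbols changed. As in the methods, a probeset whose mean was among the lowest 25% of OVCAR-8R (log2 up to 5.11) and also of OVCAR-8 (up to 5.16) was left out, and 25628 were kept. Where a gene had several probesets, the one of highest mean signal stood for it. A linear model of the line was fitted in limma 3.58.1 (lmFit, eBayes) under R 4.3.3, with no block for the replicate number, and p-values were adjusted by Benjamini-Hochberg across all kept probesets. The methods' t-test was an alternative. The fit was also run on simulated arrays with independent noise and known differences. These lack the shared deviations of the OVCAR-8R arrays, so that run does not test the calls reported here.

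The adenosine genes and the lists of other pathway genes were chosen with earlier results of these data known. Named are all adenosine genes, up to 4 called genes of each list in each direction by size, the 5 genes most like NT5E and 5 measured neighbours on each side. Uncalled list genes, PGAP1, PIGL, PIGK, PIGS and the marker genes were chosen for naming after their values were seen. Precision is limited by the number of arrays, 4 in each group, and there is no read depth. Promoter sequences are from RefSeq (GRCh38.p14), of which the 50 bases after the start were left out. RefSeq was otherwise used for names and gene order only, since the sources used here do not name the build behind the array annotation. The alternatives were other filters, thresholds, tests, rescalings, array weights, averaging of probesets, blocking on replicate number and omitting 1 array at a time.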

Additional observations from a re-analysis of the deposited data

Results flagged for a closer look

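Of 76 sets of 4 arrays (9 adenosine genes and 29 called pathway genes in each line), 2 held an array far from the other 3, by a gap that made up most of their range (Dixon's criterion). Chance flags about 1 in 20 such sets. PRKAR2B, a regulatory subunit of protein kinase A, had a log2 signal of 8.55 on OVCAR-8 array 4 and between 8.00 and 8.09 on the other OVCAR-8 arrays. PIGA, which starts the GPI anchor, had a log2 signal of 9.27 on OVCAR-8 array 3 and between 9.43 and 9.46 on the others. No adenosine gene held such an array.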

How the results depend on the processing

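A stricter filter on low signal removed ENTPD1. NT5E was called under all 22 alternatives, with log2 differences from 6.09 to 6.29, and no adenosine gene was called lower at 2-fold under any of them. The number of adenosine genes called, 1 of 8, was 2 with cyclic loess and with array weights (NT5E and ADK each time), 3 at 1.5-fold (ADA too) and 5 at any size of difference, with ENTPD1 and SLC29A1. Leaving out each array in turn gave 1 to 2, the 2 without OVCAR-8 replicate 2. ADK ranged from 0.94 to 1.1 and ADA from -0.70 to -0.60. ENTPD2 ranged from -0.0134, a change of sign, without OVCAR-8 replicate 4 to 0.0921 without OVCAR-8 replicate 3. The 29 called pathway genes became 57 at 1.5-fold and 93 at any size, which hold all 29 by construction, and 20 with treat. Over all genes, 2668 calls became 5252 at 1.5-fold, 9172 at any size and 1475 with treat, of which 56.4% were higher against 50% in the analysis reported. Same-numbered arrays of the lines deviated together for number 4 (r = 0.44) and weakly for number 1 (0.16) but not for numbers 2 (-0.32) and 3 (-0.05), so the numbers were not taken to pair the arrays. With a replicate block 2668 genes, 1 adenosine gene (NT5E) and 29 pathway genes were called, and no call changed among these 30. Signals near background, as for NT5E in OVCAR-8, ENTPD1 and ENTPD3, limit the size of a difference.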
